A study of Mus musculus with 12 samples.

Results

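Among 126095 cells of the stromal vascular fraction of mouse white fat, 322 carried RNA of the T cell receptor delta chain together with RNA of the CD3 complex. These Trdc T cells were chosen on raw counts of unique molecular identifiers (UMIs, each standing for 1 captured RNA molecule). A barcode needed at least 1 UMI of Trdc, the constant gene of the delta chain, and at least 1 UMI over Cd3d, Cd3e and Cd3g, which encode CD3 subunits. It had to hold no UMI of Cd4, Cd8a, Cd8b1, Foxp3 (regulatory T cells), Adgre1 (macrophages) or Cd79a (B cells). The limits on barcodes were 700 and 22000 UMIs, 200 and 6000 genes and, for mitochondrial UMIs, 25%. The cells were 322 of the 8259 kept cells with a CD3 UMI and no Adgre1 or Cd79a UMI. Membership is thus a range of UMIs. The genes of the rule are described and no test of them is given, though they were not removed from the fits between labels.

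The study gave rosiglitazone (Rosi), an agonist of the lipid-sensing nuclear receptor PPARγ, to obese mice and asked how the cells of their fat respond. Epididymal (eWAT) and inguinal (iWAT) white fat was taken from male mice aged 12 weeks in 3 groups. Mice labelled WT-Veh were lean C57BL/6J animals given a methylcellulose vehicle, mice labelled ob/ob-Veh carried Lepob/Lepob, which removes functional leptin and causes obesity, and received the same vehicle, and mice labelled ob/ob-Rosi were Lepob/Lepob animals given 30 mg/kg rosiglitazone. Dosing was by gavage every morning and evening for 3 days in all groups. Each group had 2 libraries per depot (12 libraries in all), made with the 10x Genomics 3′ v3.1 chemistry from small biopsies digested with collagenase. Floating adipocytes were discarded, so cells that float with them were not sampled. Functional leptin is absent from the whole ob/ob animal, and the drug reached the whole animal, so neither acts on T cells alone. Lean mice given rosiglitazone were not analysed here, and an ob/ob effect can be read only under vehicle.

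Gamma-delta T cells are T lymphocytes whose receptor is built from a gamma and a delta chain in place of the alpha and beta chains of CD4 and CD8 T cells. Many settle in tissues early in life and stay there. In mouse fat they are known for a subset that makes interleukin 17 and for a subset closer to cytotoxic and type 1 cells, and interleukin 7, read through Il7r, helps to maintain them.

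The libraries held 20132553 to 92475986 UMIs over 31053 genes and kept 6472 to 17500 cells, with a median of 1132 to 4961 UMIs per kept cell. The iWAT library labelled WT-Veh 1 stood apart: it had the lowest median, and 20.5% of its kept cells lay in the gate of CD3 cells without Trdc, Cd4 or Cd8 UMIs and 11.0% in the Cd79a gate. Pairs of libraries shared 0.108% to 1.05% of the barcodes of the smaller library, at most 99 barcodes. Lep, the gene mutated in ob/ob mice, keeps its transcript, so its 4 to 277 UMIs per library do not check the genotype. In cells with an Adgre1 UMI, Trem2 and Lgals3, which mark lipid-associated macrophages and are known to be high in obese fat, were lowest in the libraries labelled ob/ob-Veh in both depots. In eWAT Trem2 stood there at 70.9 and 101 CPM (UMIs scaled to the same total in every sum), against 1468 and 1295 CPM under WT-Veh and 1317 and 1675 CPM under ob/ob-Rosi. The study found few lipid-associated macrophages in its ob/ob-Veh samples and proposes that they floated off with the adipocytes. The floating layer, which it examined by imaging, is not in these libraries. By flow cytometry it found fewer such macrophages in ob/ob mice under rosiglitazone, in both depots. Why the values were low here was not tested, and groups are called by their labels. Whether an eWAT and an iWAT library with the same number came from the same mouse is not stated.

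The constant genes of the receptor chains decided what these libraries can tell about the members. The start of each is shown to let the gamma genes be compared, because reads of near-identical genes cannot be assigned with certainty. The sequences are 90 coding bases of exon 1 in GRCm38, 5′ to 3′ on the gene's strand, from base 1 of the exon or, in Tcrg-C3, from base 2. Capitals mark bases of Tcrg-C2, Tcrg-C3 and Tcrg-C4 that differ from Tcrg-C1, and Trdc is shown without marking.

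Tcrg-C1, chr13:19214103-19214192, plus strand: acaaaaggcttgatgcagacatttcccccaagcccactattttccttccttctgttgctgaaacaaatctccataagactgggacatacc
Tcrg-C2, chr13:19307462-19307551, minus strand: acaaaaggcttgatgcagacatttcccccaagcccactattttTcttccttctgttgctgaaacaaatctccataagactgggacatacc
Tcrg-C3, chr13:19260885-19260974, plus strand: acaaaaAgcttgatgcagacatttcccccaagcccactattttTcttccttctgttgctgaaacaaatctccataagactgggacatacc
Tcrg-C4, chr13:19344558-19344647, plus strand: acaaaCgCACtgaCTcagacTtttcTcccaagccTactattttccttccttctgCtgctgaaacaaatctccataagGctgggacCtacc
Trdc, chr14:54142851-54142940, plus strand: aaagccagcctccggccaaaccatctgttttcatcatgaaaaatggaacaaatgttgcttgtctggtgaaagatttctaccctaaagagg

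Over this stretch Tcrg-C2 differed from Tcrg-C1 at 1 base, Tcrg-C3 at 2 and Tcrg-C4 at 12. Of all 60-base windows of the Tcrg-C1 transcript, 11.9% also occurred in Tcrg-C2 and 16% in Tcrg-C3, while Tcrg-C4, Trdc and Trac shared none with the other constant genes. Tcrg-C3 had 0 UMIs in every gate, and 57.3% of the 60-base windows in its last 300 bases, the end that a 3′ library reads best, also occurred in Tcrg-C1. Values of single gamma genes are therefore uncertain, so the share of cells with a gamma chain is taken over all of them, and Tcrg-C1 alone is given with this limit. The beta genes Trbc1 and Trbc2 shared 38.8% and 41.5% of their windows and are summed as well.

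Trdc lies at chr14:54142851-54148868 and contributed 1229 UMIs in the 322 members. Its level was 1449 and 1345 CPM in the eWAT libraries labelled WT-Veh, 1186 and 1921 CPM under ob/ob-Veh and 2078 and 1329 CPM under ob/ob-Rosi. In iWAT it was 1333 and 1404 CPM under WT-Veh, 1201 CPM in the ob/ob-Veh library that had members, and 1089 and 1091 CPM under ob/ob-Rosi. The levels of eWAT overlapped between labels, and since the rule demanded the gene, its level is a description. Cd3g was found in 247 members (76.7%), Cd3e in 202 (62.7%) and Cd3d in 198 (61.5%). Il7r, the receptor subunit for interleukin 7 at chr15:9505788-9530176, was found in 220 members (68.3%) and ranged from 467 to 900 CPM over the 9 libraries with at least 10 members. Of cells in the CD4 gate 52.9% held an Il7r UMI, of the CD8 gate 39.8%, of the regulatory gate 68.2%, of the natural killer (NK) gate 11.9% and of the stromal gate 1.74%, while the gate of group 2 innate lymphoid cells (ILC2) demanded it. Thinned to 700 UMIs per cell, the share was 41.9% among members, 32.3% in the CD4 gate and 37.4% in the regulatory gate. Of the 3 markers given for these cells, Trdc, Cd3e and Il7r, the rule used the first and the second, and Il7r alone was free of it.

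The members' depth and their position at the edge of the rule set how much each cell shows. Their median was 2033.5 UMIs and 1031 genes, with 3.77% mitochondrial UMIs, and 49 had fewer than 1000 UMIs. Trdc passed with exactly 1 UMI in 110 members and with 2 or more in 212. Of the members with 1 Trdc UMI, 25.5% held a UMI of any gamma constant gene, against 74.5% of those with 2 or more and 78.4% of the 88 with 5 or more. Just outside the rule, CD3 cells with no Trdc, Cd4 or Cd8 UMI held a UMI of any gamma constant gene in 3.80% and Il7r in 31.7%. The CD3 threshold was met by exactly 1 UMI in 69 members. Of 827 kept cells with a Trdc UMI, 132 were left out for Adgre1, 17 for Cd79a, 10 lay in the CD8 gate, 4 in the CD4 gate and 4 in the regulatory gate. Trdc was found in 7.37% of 1519 NK-gate cells, 0.740% of CD8-gate, 0.670% of CD4-gate, 0.278% of endothelial-gate and 0.207% of stromal-gate cells, the last at a median of 3900 UMIs.

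A gamma chain was found in 186 members (57.8%), an alpha chain (Trac) in 30 (9.32%) and a beta chain in 205 (63.7%). In the pooled CD4 and CD8 gates (1949 cells, median 1621 UMIs), 1.74% held a gamma UMI, and 52.8% of the CD4 gate and 43.3% of the CD8 gate held Trac. Thinned to 700 UMIs, the gamma share was 30.7% among members and 0.56% in the CD4 and CD8 gates, and the Trac share among members was 3.42%. The plot of chains and programmes by gate shows that members held gamma chain RNA more often than any other gate drawn, and their Trac share stood above the 0.53% of the stromal gate. Beta chain RNA did not separate the cells, since 60.1% of NK-gate cells, which were chosen to hold no CD3 UMI, held it too. A gamma UMI without any alpha or beta UMI was found in 55 members, a gamma UMI with one in 131, alpha or beta UMIs without a gamma UMI in 80 (24.8%), and no chain in 56.

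**Figure D1:**
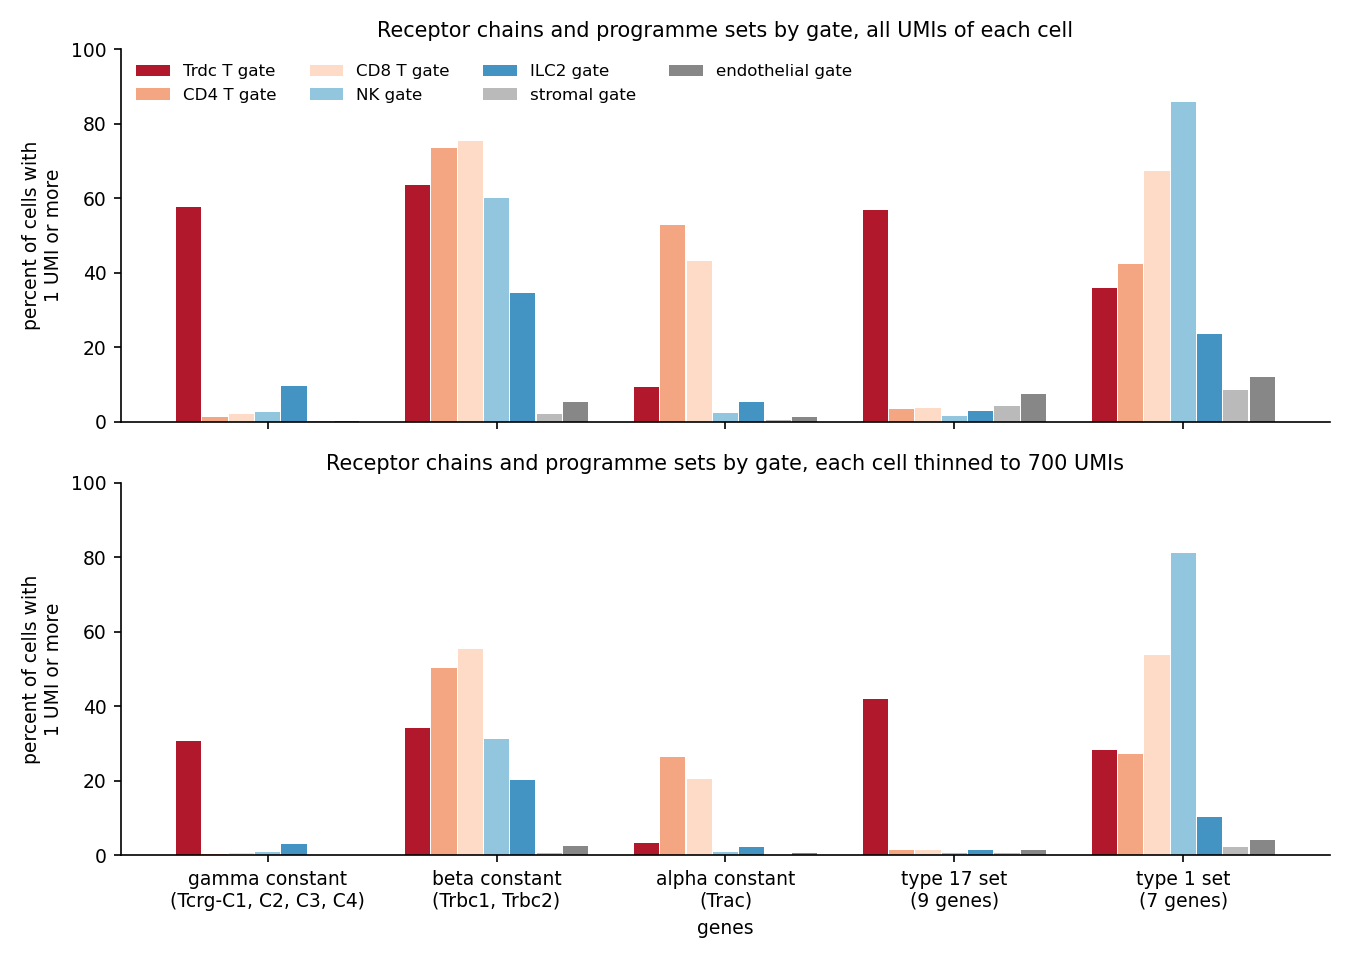
Share of cells (%) with at least 1 UMI of the gamma, beta or alpha constant genes, of the type 17 genes and of the type 1 genes, in 7 gates. Upper bars use all UMIs and lower bars cells thinned to 700 UMIs, and 57.8% of members against 1.74% of CD4 and CD8 gate cells held a gamma UMI.

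RNA of several variable genes was found in the members. Trdv4, a delta variable gene at chr14:54074905-54075515, was found in 67 members (20.8%) and in 1 of the 1949 CD4 and CD8 gate cells (0.0513%). Tcrg-V6, the gamma variable gene of the known interleukin 17 lineage, was found in 14 members (4.35%), Tcrg-V1 in 4, Trdv2-2 in 3, Tcrg-V4 and Trdv1 in 1 each and Trdv5 in none. A 3′ library reads variable genes, which lie at the 5′ end of the transcript, poorly, so these counts are no measure of how common each receptor was. Of the constant genes Tcrg-C1 was found in 144 members (44.7%), Tcrg-C4 in 68 (21.1%) and Tcrg-C2 in 53 (16.5%).

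Most members carried RNA of a type 17 or of a type 1 programme, and few carried both. The type 17 set included Il17a, Il17f, Il23r, Cd163l1, 5830411N06Rik, Sox13, Blk and Ccr6, and the type 1 set was Tbx21, Eomes, Gzma, Gzmb, Ccl5, Nkg7 and Klrd1. At least 1 UMI of the type 17 set was found in 183 members (56.8%) and of the type 1 set in 116 (36.0%), with 26 members in both and 49 in neither. The type 17 set was found in 3.54% of CD4 and CD8 gate cells, 1.51% of NK-gate, 4.25% of stromal-gate and 11.9% of Cd79a-gate cells, Blk being a B cell gene as well. The type 1 set was found in 42.4% of CD4-gate, 67.4% of CD8-gate and 85.9% of NK-gate cells, so the share among members lay below all of these at full depth. Thinned to 700 UMIs, 41.9% of members held the type 17 set and 28.3% the type 1 set, against 1.39% of the CD4 and CD8 gates for the former and 27.1% of the CD4 gate for the latter.

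Cd163l1, a scavenger receptor known on gamma-delta T cells that make interleukin 17, had the most UMIs of this set, with 480 UMIs in 156 members (48.4%) and a UMI in 0.513% of CD4 and CD8 gate cells. Blk, a Src-family kinase used by the same cells, was found in 75 members (23.3%), Sox13, a transcription factor of that lineage, in 31 (9.63%) and Il23r, the receptor for interleukin 23, in 29 (9.01%). Il17a itself was found in 26 members (8.07%) with 83 UMIs and in 1 CD4 or CD8 gate cell (0.0513%), and Il17f in 4 members. Zbtb16 (PLZF), a factor of innate T cells, was found in 54 members (16.8%) and 4.31% of CD4 and CD8 gate cells, but also in 53.5% of the stromal gate, so RNA from stromal cells can add to it. Areg, a tissue repair factor made by fat-resident lymphocytes, was found in 6 members (1.86%), against 35.2% of the regulatory gate and 32.2% of the ILC2 gate. Ifng, the type 1 cytokine, was found in 14 members (4.35%) and 7.85% of the CD4 and CD8 gates.

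The members with RNA of the type 17 set alone (157, median 2063 UMIs) and those with RNA of the type 1 set alone (90, median 2572 UMIs) differed in many genes outside both sets. The split was made on these cells, so the shares are a description. Tmem176a, an ion channel gene of the type 17 programme, was found in 88.5% of the type 17 members and 17.8% of the type 1 members, and Cxcr6, a receptor that holds lymphocytes in tissue, in 66.9% and 6.67%. Rora, a nuclear receptor, was found in 66.9% and 13.3%, Ramp1, a receptor component for the neuropeptide CGRP, in 67.5% and 20%, and Il18r1, the interleukin 18 receptor, in 68.8% and 21.1%. Tcrg-C1 was found in 67.5% and 15.6%, and Trdv4 in 28.0% and 1.11%. Il7r was found in 81.5% and 43.3% and Il2ra, the high-affinity interleukin 2 receptor subunit, in 44.6% and 6.67%. Pdcd1, the checkpoint receptor PD-1, was found in 26.8% and 0%.

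Other listed genes were found more often among the type 1 members. Ly6c2, a surface protein of memory-type T cells, was found in 1.27% of the type 17 members and 77.8% of the type 1 members, and Ctsw, a protease of cytotoxic cells, in 2.55% and 58.9%. Xcl1, a chemokine that draws dendritic cells, was found in 0% and 45.6%, the NK receptor gene Klrb1c in 0% and 36.7% and Klrk1 (NKG2D) in 15.3% and 60%. The costimulatory receptor Cd27 was found in 2.55% and 45.6%. A gamma UMI was found in 76.0% of all type 17 members and 44.8% of all type 1 members. Among members with 1 set alone it was found in 76.4% (type 17) and 36.7% (type 1). Alpha or beta UMIs without a gamma UMI were found in 8.28% and 54.4% of these. Exactly 1 Trdc UMI was held by 20.4% and 54.4%, and a UMI of the NK receptor genes Ncr1 or Klrb1c by 0% and 47.8%. The type 1 members thus lay more often at the edge of the rule. The plot of genes by programme shows the genes named above far from the diagonal, while most listed genes lay near it.

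**Figure D2:**
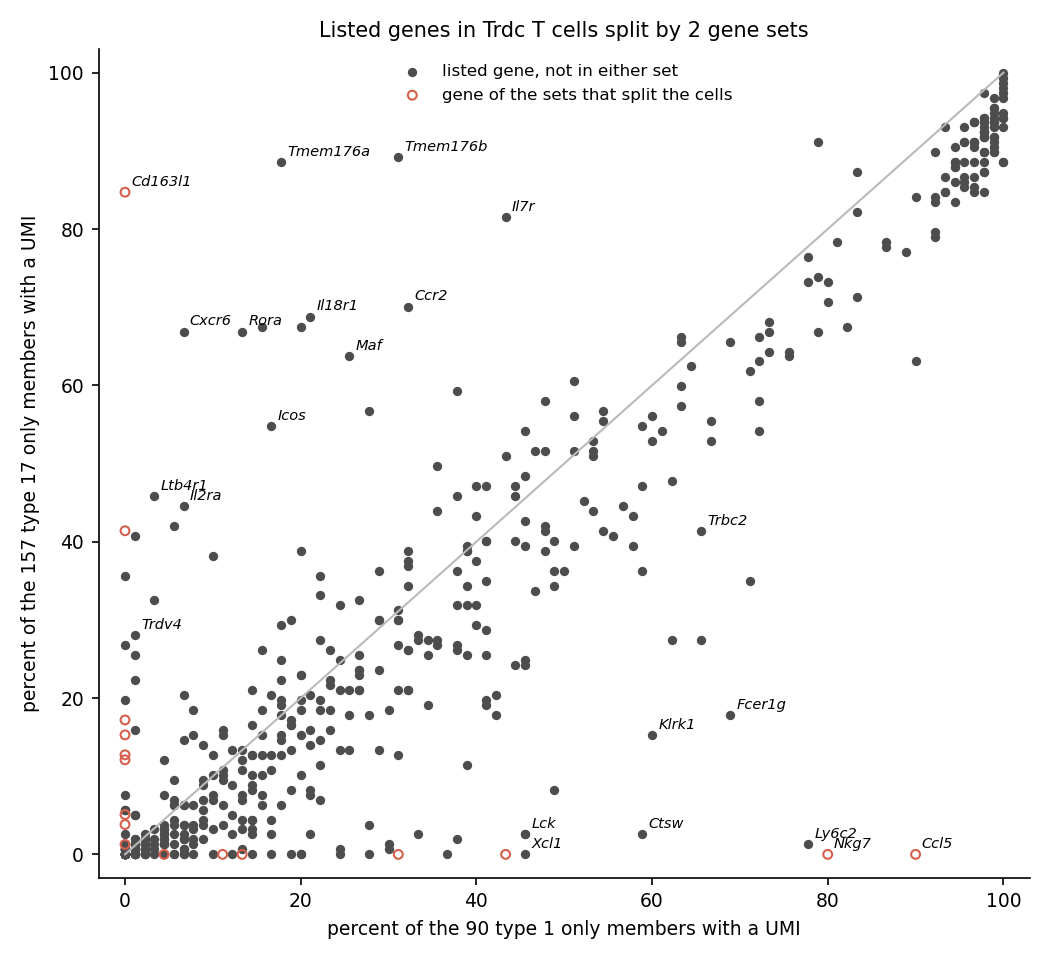
Each point is a listed gene, with the share (%) of the 90 members with type 1 UMIs only on the x axis and of the 157 members with type 17 UMIs only on the y axis that held at least 1 UMI of it. Tmem176a lies at 17.8% and 88.5% and Ly6c2 at 77.8% and 1.27%, on opposite sides of the diagonal.

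Set beside CD4 and CD8 gate cells of the same 9 libraries, the 4 genes with the highest ratio were Trdv4, Tcrg-C1, Cd163l1 and Blk. The contrast is the one the rule was built on, so no test is given. Trdv4 averaged 146 CPM in members and 0.202 CPM in the CD4 and CD8 gates, Tcrg-C1 287 and 1.86 CPM, and Cd163l1 490 and 3.44 CPM, each higher in members in 9 of 9 libraries. Blk averaged 123 and 1.78 CPM, ranging from 31.1 to 198 CPM over the libraries. Tmem176a averaged 935 and 106 CPM and its neighbour Tmem176b 1062 and 148 CPM, also in 9 of 9 libraries. The genes overlap on opposite strands at their 5′ ends (chr6:48840919-48847071 and chr6:48833818-48841496), away from the 3′ ends that these libraries read best. Igf1r, the receptor for insulin-like growth factor 1, averaged 227 and 29.6 CPM, Il2ra 160 and 26.5 CPM and the thrombin receptor gene F2r 157 and 26.5 CPM. Xcl1, a chemokine of the type 1 list, averaged 202 and 19.3 CPM and was higher in members in 6 of 9 libraries. Not all of these genes were particular to members among lymphocytes: Xcl1 averaged 204 CPM in the NK gate. In the ILC2 gate Il2ra averaged 198 CPM, Tmem176a 414 CPM and Tmem176b 487 CPM. Trdv4 averaged 6.41 CPM in the NK gate and 8.44 CPM in the ILC2 gate, and Cd163l1 2.21 and 0.886 CPM. Genes whose ratio rests on few libraries or cells stood among the same 15, as the plot of members against CD4 and CD8 gate cells shows: Ccl17 and Mmp3 were higher in 3 of 9 libraries, and Cxcl9 in 2 of 9 libraries. Hbb-bs was higher in 6 and Prdx1 in 7, each with a single library far above the rest (up to 1004 and 19127 CPM).

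**Figure D3:**
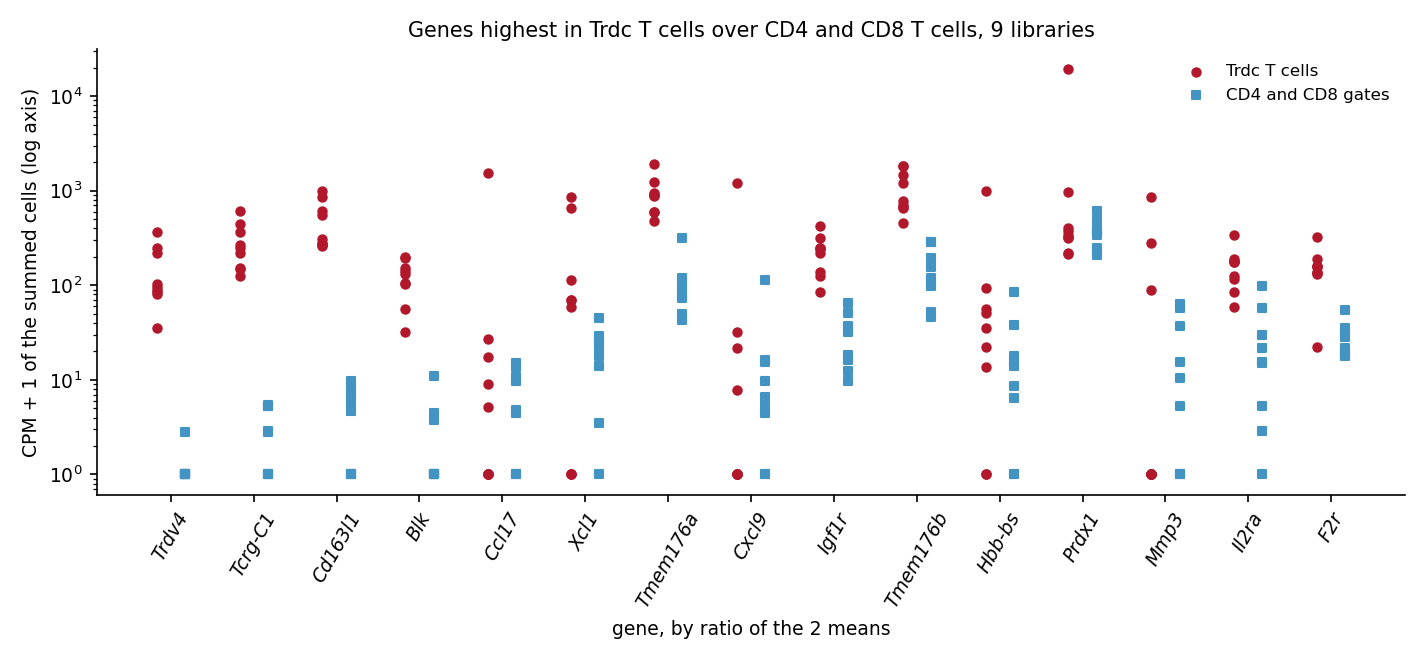
CPM (plus 1, log axis) of the 15 genes with the highest ratio of members to CD4 and CD8 gate cells, each point a library of the 9 with at least 10 members. Cd163l1 ranged from 261 to 988 CPM in members against a mean of 3.44 CPM in the CD4 and CD8 gates, whereas Cxcl9 was higher in members in 2 libraries only.

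The genes lower in members included several of conventional T cells. Themis, which tunes alpha-beta receptor signals in the thymus, averaged 6.09 CPM in members and 104 CPM in the CD4 and CD8 gates and was higher in members in 0 of 9 libraries. Trac averaged 48.2 and 363 CPM, Ccr7, which guides naive T cells to lymph nodes, 23 and 187 CPM, Lef1, a factor of naive T cells, 41.7 and 149 CPM, and the chemokine Ccl5 1323 and 4771 CPM. Genes of myeloid cells were among them as well: Lyz1 (lysozyme) averaged 63.6 and 297 CPM, Il1b 84.6 and 237 CPM and Retnla 693 and 1913 CPM. They were higher in members in 3, 2 and 2 of 9 libraries, and Retnla ranged from 13.1 to 6278 CPM in the CD4 and CD8 gates. The CD4 and CD8 gates were chosen on alpha-beta lineage genes, so this direction was in part built in.

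The number of members was small in every library. In eWAT 17 and 20 cells were found under WT-Veh, 31 and 32 under ob/ob-Veh and 8 and 32 under ob/ob-Rosi. As a share of kept cells these were 0.116% (95% exact Clopper-Pearson interval 0.0673 to 0.185) and 0.309% (0.189 to 0.477), 0.338% (0.230 to 0.480) and 0.413% (0.283 to 0.582), and 0.0848% (0.0366 to 0.167) and 0.318% (0.218 to 0.448). The intervals cover counting error only. Both ob/ob-Veh libraries lay above both WT-Veh libraries, but the intervals of 3 of these 4 libraries overlapped. In iWAT 39 and 73 cells were found under WT-Veh, 0 and 6 under ob/ob-Veh and 14 and 50 under ob/ob-Rosi. The shares were 0.229% (0.163 to 0.312) and 0.742% (0.582 to 0.932) under WT-Veh and 0.145% (0.0791 to 0.243) and 0.286% (0.212 to 0.377) under ob/ob-Rosi. Under ob/ob-Veh they were 0 of 7205 cells, for which a floor of 3 cells allows a share of up to 0.0416% and the exact interval one of up to 0.0512%, and 0.0833% (0.0306 to 0.181).

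With 2 libraries a group the smallest exact permutation p is 0.33, so numbers were fitted over 13 exclusive gates with edgeR, which shares the spread between gates, and adjusted over the gates. In iWAT members were fewer under ob/ob-Veh than under WT-Veh, at a log2 ratio of -3.50 (SE 1.24, adjusted p = 0.0323). In this comparison 6 of the 13 gates (46.2%) were called, so the members shared the call with many other gates. With cells holding a CD3 UMI as the total in place of all kept cells, the log2 ratio was -0.80 (adjusted p = 0.630). Without the iWAT library WT-Veh 2 it was -2.42 (adjusted p = 0.178) and without ob/ob-Veh 1 it was -2.52 (adjusted p = 0.180), so either library decided the call. In eWAT the log2 ratio of ob/ob-Veh to WT-Veh was 0.85 (SE 1.08, adjusted p = 0.865; 7.69% of gates called), of ob/ob-Rosi to ob/ob-Veh -0.89 (SE 1.07, adjusted p = 0.910; 0%) and of ob/ob-Rosi to WT-Veh -0.04 (SE 1.09, adjusted p = 0.971; 0%). In iWAT ob/ob-Rosi stood at 2.35 (SE 1.22, adjusted p = 0.307; 0%) against ob/ob-Veh and at -1.15 (adjusted p = 0.501; 0%) against WT-Veh. Over the 3 labels iWAT stood at -0.61 (SE 0.64, adjusted p = 0.830; 0%) against eWAT. The ob/ob effect in iWAT minus that in eWAT was -4.35 (SE 1.64, adjusted p = 0.0529; 7.69%), which missed the threshold.

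Within the CD3 cells, members made up 7.62% (of 223) and 4.96% (of 403) in eWAT under WT-Veh, 11.1% and 13.9% under ob/ob-Veh and 4.17% and 12.1% under ob/ob-Rosi. In iWAT they made up 0.849% (of 4592) and 7.97% (of 916) under WT-Veh, 0% (of 52) and 3.61% (of 166) under ob/ob-Veh, and 4.01% and 8.43% under ob/ob-Rosi. The value of 0.849% belongs to the iWAT library WT-Veh 1, whose CD3 cells outnumbered those of any other library. The plot of shares per library shows that the intervals of the 2 libraries did not overlap, as a share of kept cells, in WT-Veh of either depot and in eWAT ob/ob-Rosi.

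**Figure D4:**
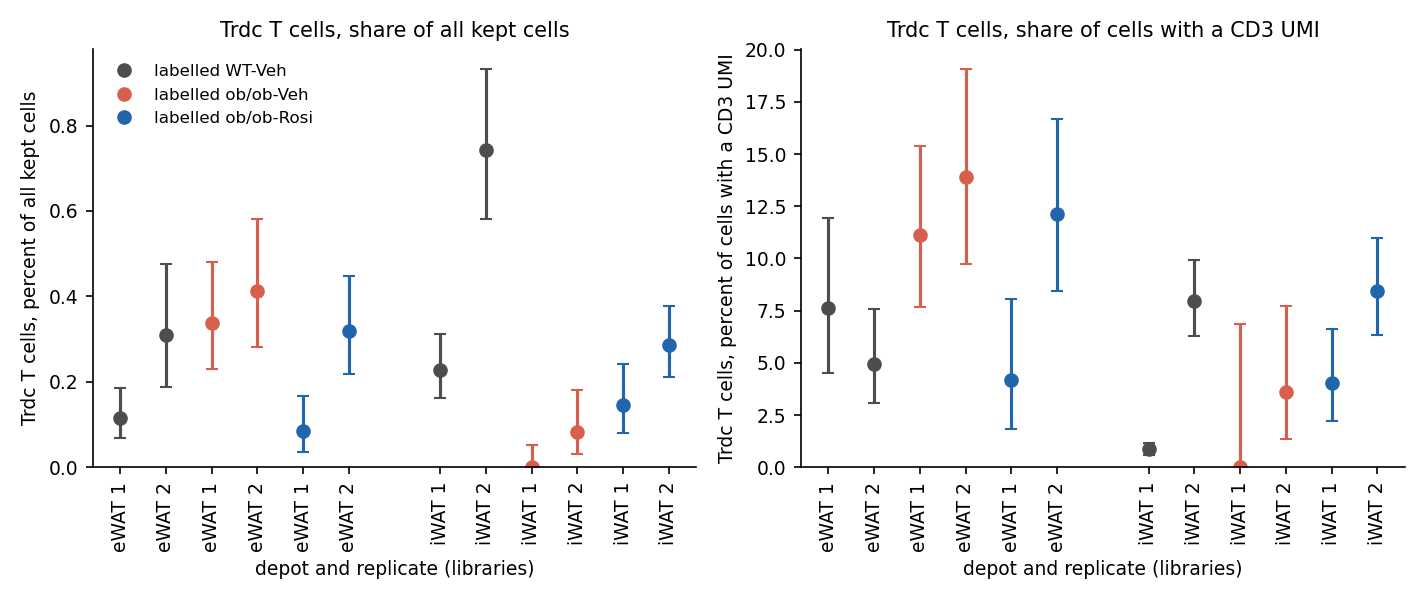
Members as a share (%) of kept cells (left panel) and of CD3 cells (right panel) in each of the 12 libraries, with 95% exact Clopper-Pearson intervals and colour by label. The highest share of kept cells is 0.742% in an iWAT WT-Veh library and the highest share of CD3 cells 13.9% in an eWAT ob/ob-Veh library.

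The make-up of the members also varied. In eWAT the type 17 set was found in 47.1% and 45.0% of members under WT-Veh, 67.7% and 71.9% under ob/ob-Veh and 75.0% (of 8 cells) and 53.1% under ob/ob-Rosi. In iWAT it was found in 43.6% and 64.4% under WT-Veh, 33.3% (of 6 cells) in the ob/ob-Veh library with members and 42.9% and 54.0% under ob/ob-Rosi. The ob/ob-Veh members of eWAT were also the deepest, at medians of 2896 and 3256.5 UMIs against 1025 and 2057.5 UMIs under WT-Veh. Thinned to 700 UMIs, the eWAT shares were 41.2% and 40% under WT-Veh, 45.2% and 68.8% under ob/ob-Veh and 62.5% and 31.3% under ob/ob-Rosi, so the gap between WT-Veh and ob/ob-Veh was smaller. The smallest exact permutation p with 2 libraries a group is 0.33, and no model was fitted to the make-up, so its differences are a description.

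To ask whether the members' RNA differed between labels, UMIs were summed over the members of each library with at least 10 of them, which left 9 libraries and 308 members. Under eWAT ob/ob-Rosi only the library ob/ob-Rosi 2 remained, so that arm is a lone library assumed to vary like the others, and no iWAT contrast with ob/ob-Veh could be made. In simulated data for the eWAT ob/ob-Veh against WT-Veh contrast, over 3115 genes, 0% of genes changed 2-fold, 7.5% changed 4-fold and 50.5% changed 8-fold were called, so mostly very large differences could be seen with these cells and libraries. Beside the 101 genes recovered at 8-fold, 10 unchanged genes were called.

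In eWAT 3 of 3115 genes tested (0.0963%) differed between ob/ob-Veh and WT-Veh by the quasi-likelihood test of edgeR at an adjusted p of at most 0.05, all lower under ob/ob-Veh. They were Trem2, the lipid receptor of lipid-associated macrophages, Lgals3 (galectin 3), a lectin abundant in the same macrophages, and Cxcl9, an interferon-induced chemokine. At an unadjusted p under 0.05 the number was 202 (6.48%). Lgals3 (chr14:47367751-47386160) stood at 1669 and 1513 CPM in the members under WT-Veh and at 120 and 79.7 CPM under ob/ob-Veh, a log2 difference of -3.97 (SE 0.69, adjusted p = 0.0236). Trem2 (chr17:48346401-48354147) stood at 615 and 273 CPM under WT-Veh, from 14 and 13 UMIs, and at 0 in both ob/ob-Veh libraries, which is at least 17.9-fold lower with a floor of 3 UMIs per library (adjusted p = 0.00535). Without the eWAT library ob/ob-Rosi 2 or the iWAT library ob/ob-Rosi 2, which are not in the contrast itself, Trem2 stood at adjusted p = 0.0506 and 0.0896. The adjusted p of Lgals3 lay between 0.00342 and 0.257 when a library was left out, the highest without the eWAT library WT-Veh 2. With cells thinned to 700 UMIs neither Lgals3 (adjusted p = 0.0579) nor Trem2 (adjusted p = 0.437) passed, nor did they with at least 20 members a library (adjusted p = 0.326 and 0.157). The fitted log2 differences stayed large, at -3.64 and -4.02 for Lgals3 and -6.66 and -8.07 for Trem2 (main value -8.31). Cxcl9 rested on 1 cell of WT-Veh 2, which held 57 of its 58 UMIs there, and its groups overlapped.

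The values of both macrophage genes differed in the same direction in other cells of the same libraries. In the CD4 and CD8 gates Lgals3 stood at 1329 and 1024 CPM under WT-Veh and 177 and 336 CPM under ob/ob-Veh, and Trem2 at 119 and 209 CPM against 3.5 and 4.9 CPM. In the Adgre1 gate Lgals3 stood at 6630 and 4926 CPM under WT-Veh and 543 and 555 CPM under ob/ob-Veh. All 12 tested genes of the macrophage RNA list lay below 0 in the members, 1 of them called, with a median log2 difference of -2.12 (9 at an unadjusted p under 0.05), beside 0.07 over all genes tested. The list took 1.85% and 0.773% of the members' UMIs under WT-Veh and 0.256% and 0.151% under ob/ob-Veh. The difference in members minus that in the CD4 and CD8 gates was -1.56 for Lgals3 (SE 0.63, adjusted p = 0.524) and -4.26 for Trem2 (SE 2.77, adjusted p = 0.946), so the difference was not shown to be larger in members. By the same test of the difference, 29 of 6507 genes (0.446%) were called, 4 higher in members relative to the other T cells (0.0615%) and 25 lower (0.384%), with 406 (6.24%) at an unadjusted p under 0.05. The count was 4 by DESeq2, 5 without the deepest members and 0 at 2 or more Trdc UMIs, and 1 to 40 without a library. The part of macrophage RNA in it was not tested.

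Under rosiglitazone 12 of 3115 genes (0.385%) were higher in the eWAT library ob/ob-Rosi 2 than in the ob/ob-Veh libraries and 0 lower, with 235 (7.54%) at an unadjusted p under 0.05. Lgals3 rose to 1283 CPM (log2 difference 3.71, adjusted p = 0.0257) and Trem2 to 286 CPM from 0, at least 11.5-fold (adjusted p = 0.00554). Plin2, which coats lipid droplets, rose to 1088 CPM from 94.6 and 191 CPM (log2 difference 2.99, adjusted p = 0.0498). Of the other 9, Hmox1 (heme oxygenase), Nqo1, Srxn1, Gclm and Prdx1 (peroxiredoxin 1) serve the oxidative stress response, Cryab is a small heat shock protein, Ctsl a lysosomal protease, Timp1 an inhibitor of metalloproteinases and Esd an esterase. Prdx1 reached 19127 CPM against 318 and 215 CPM (log2 difference 6.20, adjusted p = 0.000562) and Timp1 1168 CPM against 0 and 0, at least 47.0-fold (adjusted p = 0.000562). Most of these UMIs came from 1 cell. That member, the deepest of all at 20280 UMIs, held 4 Trdc UMIs, 1 CD3 UMI, no gamma UMI and 101 UMIs of other lineages, and it gave 1636 of the 1670 Prdx1 UMIs, 102 of 102 Timp1 UMIs, 87 of 96 Hmox1 UMIs and 58 of 95 Plin2 UMIs of its library. With the deepest member of each library left out, 3 genes were called in this contrast, Lgals3 (3.66, adjusted p = 0.0159), Trem2 (7.91, adjusted p = 0.000897) and Chil3. Neither Lgals3 (adjusted p = 0.0666) nor Trem2 (adjusted p = 0.606) passed with cells thinned to 700 UMIs, nor with at least 20 members a library (adjusted p = 0.220 and 0.0674). The fitted log2 differences were then 3.86 and 3.69 for Lgals3 and 6.21 and 8.05 for Trem2 (main value 7.81). The plot of called genes shows both values side by side.

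**Figure D5:**
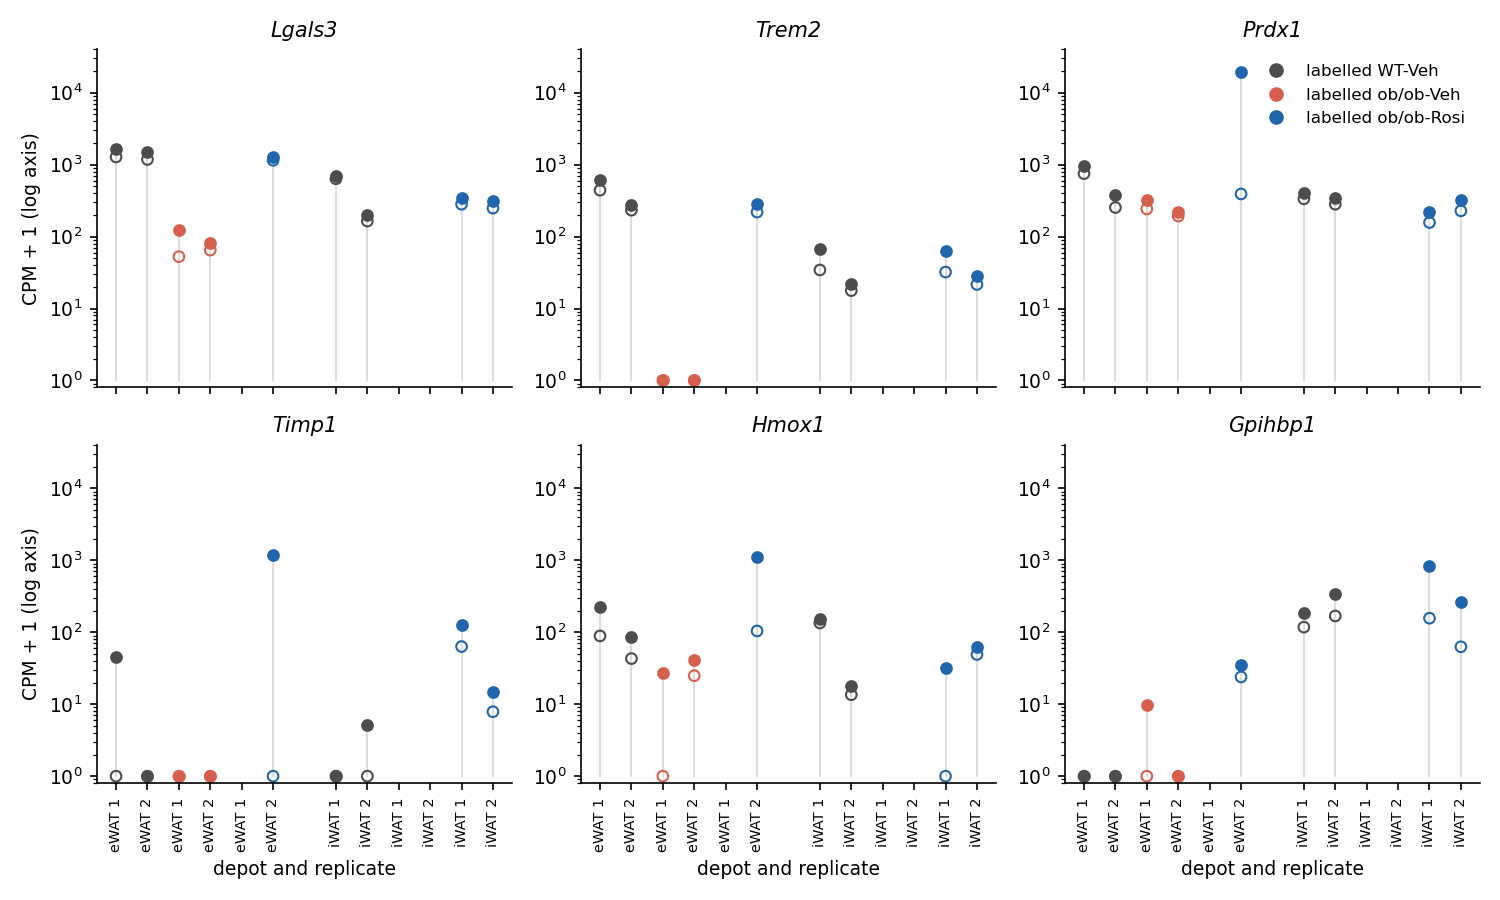
CPM (plus 1, log axis) of 6 called genes in the members of each of the 9 libraries. Filled points use all members and open points leave out the UMIs of the cell with the most UMIs of that gene, which takes Prdx1 in eWAT ob/ob-Rosi 2 from 19127 CPM to the range of the other libraries, whereas Lgals3 keeps its level.

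Lgals3 and Trem2 had values of like size in the other T cells of that library, which was not so for every macrophage gene, Retnla among them. In the CD4 and CD8 gates of eWAT ob/ob-Rosi 2 Lgals3 stood at 1297 CPM and Trem2 at 231 CPM. The macrophage RNA list took 1.05% of the members' UMIs there, 11 of its 12 tested genes lay above 0 against ob/ob-Veh, 1 of them called, and the median was 2.33, beside -0.08 over all genes. The difference in members minus that in the CD4 and CD8 gates was 1.20 for Lgals3 and 3.53 for Trem2 (adjusted p = 1 for both), while 21 of 6507 genes (0.323%) were called for such a difference, 16 higher (0.246%) and 5 lower (0.0768%), with 280 (4.3%) at an unadjusted p under 0.05. The contrast shares the ob/ob-Veh libraries with the one before, so both read the same low values. In the library ob/ob-Rosi 1, left out of the sums for its 8 members, Lgals3 stood at 2539 CPM from 22 UMIs and Trem2 at 231 CPM from 2 UMIs. Against WT-Veh, ob/ob-Rosi 2 had 4 genes called higher (0.128%; 137, or 4.4%, at an unadjusted p under 0.05), Prdx1, Timp1, Esd and Cryab, and 0 were called with the deepest members left out.

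In iWAT 0 of 3115 genes (0%) differed between ob/ob-Rosi and WT-Veh by edgeR, with 93 (2.99%) at an unadjusted p under 0.05 and 0 by DESeq2. Lgals3 stood at 700 and 201 CPM under WT-Veh and 342 and 316 CPM under ob/ob-Rosi, and Trem2 at 66.7 and 20.9 against 62.2 and 27.4 CPM, so the labels overlapped for both. The difference of this contrast between depots was called for 0 genes by edgeR (83, 2.66%, at an unadjusted p under 0.05) and 1 by DESeq2.

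Genes of the type 17 programme were not called under any label, and their values are given for size. Of 16 tested, 14 lay above 0 for ob/ob-Veh against WT-Veh in eWAT, with a median of 1.03 beside 0.07 over all genes and 5 at an unadjusted p under 0.05 (smallest adjusted p 0.489). Cd163l1 stood at 264 and 273 CPM under WT-Veh, 610 and 988 CPM under ob/ob-Veh and 309 CPM in ob/ob-Rosi 2 (log2 difference of ob/ob-Veh to WT-Veh 1.53, SE 0.59, adjusted p = 0.615). In iWAT it stood at 867 and 556 CPM under WT-Veh and 280 and 261 CPM under ob/ob-Rosi (log2 difference -1.41, SE 0.56, adjusted p = 0.998). The groups did not overlap in either depot, as was true of 37.5% of all genes in the former contrast and 26.5% in the latter. Il17a was found in 1 and 0 cells under eWAT WT-Veh, 3 and 8 under ob/ob-Veh and 1 in ob/ob-Rosi 2, and in iWAT in 4 and 5 cells under WT-Veh and 1 and 2 under ob/ob-Rosi. Rora stood at 132 and 315 CPM in eWAT under WT-Veh and 542 and 693 CPM under ob/ob-Veh (adjusted p = 0.763), and in the CD4 and CD8 gates, where it was not tested, at 119 and 104 CPM against 256 and 419 CPM. Cxcr6 stood at 417 and 581 CPM under iWAT WT-Veh and 124 and 199 CPM under ob/ob-Rosi (log2 difference -1.56, adjusted p = 0.998).

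No receptor or type 1 gene was called in eWAT for ob/ob-Veh against WT-Veh. Of the 4 gamma and delta receptor genes tested, 2 lay above 0 for ob/ob-Veh against WT-Veh in eWAT (median -0.06, 0 called). Tcrg-C1 stood at 220 and 147 CPM under WT-Veh, 249 and 614 CPM under ob/ob-Veh and 367 CPM in ob/ob-Rosi 2, and in iWAT at 267 and 447 CPM under WT-Veh and 124 and 151 CPM under ob/ob-Rosi. Of 7 type 1 and cytotoxic genes tested, 2 lay above 0 in the same eWAT contrast (median -0.29, 0 called). Ccl5 overlapped between these labels at 571 and 1576 CPM against 971 and 1474 CPM, and Nkg7 at 132 and 315 against 292 and 263 CPM. Of 10 tissue residency genes 8 lay above 0 (median 0.99) and of 8 recirculation genes 1 (median -0.62), with 0 called in either list. Il7r was 615 and 546 CPM under WT-Veh and 885 and 701 CPM under ob/ob-Veh (log2 difference 0.46, SE 0.57, adjusted p = 0.939).

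Among the lipid, cell cycle and ribosomal lists, Plin2 was the 1 gene called between labels within members, a call that was lost without the deepest members (log2 difference 1.85, adjusted p = 0.470). Of 11 tested PPAR targets and lipid genes, 2 lay above 0 for ob/ob-Veh against WT-Veh in eWAT (median -1.63, 0 called) and 8 for ob/ob-Rosi against ob/ob-Veh (median 0.99, 1 called). The macrophage RNA list lay on the same side in both contrasts, with 0 and 11 of 12 genes above 0 and medians of -2.12 and 2.33, and its part in the lipid values was not tested. Fabp5, a fatty acid carrier, stood at 351 and 273 CPM under WT-Veh, 17.2 and 47.8 CPM under ob/ob-Veh and 183 CPM in ob/ob-Rosi 2 (adjusted p = 0.200 and 0.469). In iWAT 4 of the 11 lay above 0 for ob/ob-Rosi against WT-Veh (median -0.52). All 7 cell cycle genes tested lay above 0 for ob/ob-Veh against WT-Veh in eWAT (median 2.58, 0 called, smallest adjusted p 0.189), on few cells: Stmn1, a microtubule regulator of dividing cells, was found in 0 and 1 cells under WT-Veh and in 4 and 4 under ob/ob-Veh. Of 79 ribosomal protein genes tested, 9 lay above 0 in that contrast (median -0.47), 52 for ob/ob-Rosi against ob/ob-Veh in eWAT (median 0.39) and 59 for ob/ob-Rosi against WT-Veh in iWAT (median 0.09), with 0 called in each.

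Between depots, averaged over WT-Veh and ob/ob-Rosi, 1 gene was higher (0.0321%) and 2 were lower (0.0642%) in iWAT members, with 231 (7.42%) at an unadjusted p under 0.05. Gpihbp1, a capillary protein that anchors lipoprotein lipase, stood at 0 and 0 CPM under WT-Veh and 34.4 CPM in ob/ob-Rosi 2 in eWAT, and at 183 and 334 CPM under WT-Veh and 840 and 261 CPM under ob/ob-Rosi in iWAT (log2 difference 5.77, adjusted p = 0.0335). The depots did not overlap. Gpihbp1 is made by endothelial cells, and in the CD4 and CD8 gates of iWAT it stood at 265, 280, 121 and 179 CPM. All 7 endothelial genes tested lay above 0 (median 5.55, 1 called, beside 0.09 over all genes), and the list took at most 0.01% of the members' UMIs in the 5 eWAT libraries and 0.062% to 0.379% in the 4 iWAT libraries. The part of endothelial RNA in the call was not tested. Trem2 was lower in iWAT (log2 difference -3.19, adjusted p = 0.0354), and all 12 macrophage genes lay below 0 (median -1.18). Both calls were lost with at least 20 members a library (adjusted p = 0.493 for both) and, for Trem2, after thinning (adjusted p = 0.553), at log2 differences close to the main ones (5.50 for Gpihbp1, -3.11 and -3.12 for Trem2). They were also lost without either eWAT WT-Veh library, the iWAT library WT-Veh 2 or either iWAT ob/ob-Rosi library, with an adjusted p of up to 0.256 for Gpihbp1 and 0.238 for Trem2. Prdx1 was lower in iWAT as well (-3.40, adjusted p = 0.00765), with overlapping depots and the cell described above in its eWAT value. None of the 16 type 17 genes or the 4 gamma and delta receptor genes was called between depots.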

How the data were processed

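The authors deposited, per library, raw UMI counts for each gene and barcode, made with Cell Ranger 3.0.2 against mm10 (bcl2fastq 2.19.1.403 is also listed in the submitters' processing notes), and these counts were not normalized. The 2 depots were deposited with 36 unlike symbols and were matched by gene order. Members, gates and the 30 gene lists were chosen with earlier results of these data known. No doublet caller and no correction for free RNA was applied here.

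UMIs of members were summed per library with at least 10 members and fitted over 6 depot-by-label groups with edgeR 4.0.16 in R 4.3.3 (TMM, filterByExpr, quasi-likelihood test, Benjamini-Hochberg, no block). Calls needed 1.1-fold and an adjusted p no higher than 0.05. Residual degrees of freedom of this fit were 4. Numbers of cells were fitted over 13 gates with all kept cells as the total. The contrast of members with CD4 and CD8 gate cells was designed as a mean over depots and could be fitted in eWAT only, with the library as a block. Its p-values match those of a normal distribution at the fitted log2 differences and SEs. The spread was thus in effect shared over genes there and not set gene by gene. Named genes were those of the rule, the leading and called list genes, the 10 largest called changes per direction at 100 CPM or more without overlap, and the 15 highest ratios over the CD4 and CD8 gates. Others, such as Cxcl9 and Retnla, were chosen after their values were seen. Alternatives were DESeq2 1.42.0, no filter, a replicate block, other minimum numbers of members, cells thinned to 700 UMIs, other totals, stricter members and each library left out. Python 3.11.15 with pandas 2.3.3 and scipy 1.17.1 was used. The fits were tested on simulated data. Positions and sequences come from the GRCm38 annotation. Some genes of the type 17 set and of the lists are not reported here by name.

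Counts had no unmapped column (0). Replicates are described as separate animals, and their sums differed by more than the counting noise of UMIs (chi-square per degree of freedom 11.4 to 14.7). The value was computed for WT-Veh of both depots, eWAT ob/ob-Veh and iWAT ob/ob-Rosi. It takes in differences between the few cells summed as well as between animals, and these cannot be told apart.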

Additional observations from a re-analysis of the deposited data

Results flagged for a closer look

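The effect of the labels in eWAT differed between members and the CD4 and CD8 gate cells of the same libraries for a number of genes by the edgeR test of the difference itself. For ob/ob-Veh against WT-Veh 29 of 6507 genes (0.446%) were called, 4 higher and 25 lower, with 406 (6.24%) at an unadjusted p under 0.05. For ob/ob-Rosi against ob/ob-Veh 21 genes (0.323%) were called, 16 higher and 5 lower, with 280 (4.3%) at an unadjusted p under 0.05. Both counts moved with the settings, the former to 4 and the latter to 5 by DESeq2, and the former to 0 and the latter to 11 at 2 or more Trdc UMIs. The log2 differences below are the change in members minus the change in the CD4 and CD8 gates.

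For ob/ob-Veh against WT-Veh, 3 of the 4 genes called higher in members relative to the other T cells were on the cell cycle list. They were Stmn1 at 5.89, Top2a at 5.31 and Mki67 at 4.08. How the other genes of that list lay in this difference is not given. Stmn1 averaged 337 CPM in the members under ob/ob-Veh and 10.5 CPM under WT-Veh, while the CD4 and CD8 gates went from 222 and 390 CPM under WT-Veh to 118 and 141 CPM under ob/ob-Veh. A single member held 31.1% of all Stmn1 UMIs, 37.5% of Top2a and 24.2% of Mki67. With the deepest member of each library left out, Stmn1 stood at 5.22 (adjusted p = 0.00201), Top2a at 4.53 (adjusted p = 0.0599) and Mki67 at 3.41 (adjusted p = 0.394), and none of the 3 was called at 2 or more Trdc UMIs. Over all settings the log2 differences were at least 5.19 for Stmn1, 4.53 for Top2a and 2.72 for Mki67.

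In the same contrast the values of called genes known from myeloid and antigen-presenting cells were -5.23 for Csf2rb, -4.40 for Mpeg1, -4.09 for Spi1, -3.51 for Il1b, -3.40 for H2-DMb1, -3.35 for Alox5ap, -3.32 for Etv3, -3.23 for Ccl6, -3.20 for Gm2a and -3.01 for Ccl9. Also called lower, among others, were H2-Eb1 (-2.80), Cd74 (-2.78), H2-Ab1 (-2.72), H2-Aa (-2.70) and Lyz2 (-2.42). Without the deepest members these stood at -1.05, -0.95, -0.70, -0.99 and -1.71, none of them called (adjusted p of 0.358 or more). Mpeg1, a pore-forming protein of macrophages, stood at 439 and 210 CPM in members under WT-Veh, of which 7 and 8 of 10 and 10 UMIs lay in 1 cell of each library, and at 86.0 and 23.9 CPM under ob/ob-Veh. In the CD4 and CD8 gates it stood at 68.2 and 22.6 against 145 and 175 CPM. With the deepest members left out, Ccl6 (-2.47, adjusted p = 0.0295) and Ccl9 (-2.63, adjusted p = 0.0318) were still called, while Csf2rb stood at -1.44 (adjusted p = 1), Il1b at -1.11 (adjusted p = 0.997), Mpeg1 at -2.23, Gm2a at -1.48 and Alox5ap at -2.11 (adjusted p = 0.941 for these 3 and for H2-DMb1), Spi1 at -3.11 (adjusted p = 0.915) and Etv3 at -2.71 (adjusted p = 0.730). Csf2rb, Il1b, H2-DMb1 and Etv3 lay above 0 at 2 or more Trdc UMIs. The dendritic cell and monocyte RNA list took 1.20% and 1.42% of the members' UMIs under WT-Veh and 0.523% and 0.290% under ob/ob-Veh, and its part in these differences was not tested. Its share in the CD4 and CD8 gates is not given, nor is how its other genes or the macrophage RNA list lay in this difference.

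For ob/ob-Rosi against ob/ob-Veh the values were 8.77 for Timp1, 8.32 for Retnla, 5.77 for F13a1, 4.85 for Hmox1, 4.68 for Prdx1, 3.61 for Wfdc17 and Ccl6, 3.60 for Gstm1, 3.25 for Mt1, 3.23 for Esd, -11.1 for Igfbp5, -4.62 for Timp3, -4.03 for Stmn1 and -3.69 for Fabp4. Retnla, a macrophage protein of type 2 responses, stood at 662 and 932 CPM in the members under ob/ob-Veh and 641 CPM in ob/ob-Rosi 2, where 55 of 56 UMIs lay in 1 cell, while the CD4 and CD8 gates went from 4963 and 6278 CPM to 13.1 CPM. Of Igfbp5, 87 of the 88 UMIs of the ob/ob-Veh 1 members lay in 1 cell. Fabp4 averaged 196 CPM in the members under ob/ob-Veh and stood at 527 CPM in ob/ob-Rosi 2. It was thus higher in members, and its negative value means a larger rise in the CD4 and CD8 gates. A single member held 92.7% of all Timp1 UMIs, 84.5% of Prdx1, 61.7% of Hmox1 and 62.9% of Esd, and the deepest member held 90% of the Gstm1 UMIs and 77.5% of the Mt1 UMIs of its library. With the deepest members left out, Prdx1 turned to -0.64 and Timp1 to -2.48, and Hmox1 (1.87), Gstm1 (1.20), Mt1 (1.31) and Esd (0.25) were not called either (adjusted p = 1 for all 6). Igfbp5 (-7.65, adjusted p = 0.695), Timp3 (-2.97, adjusted p = 0.493) and Stmn1 (-3.89, adjusted p = 0.0504) were no longer called. With the same members left out, Retnla stood at 8.41, F13a1 at 5.79, Wfdc17 at 3.70, Ccl6 at 3.68 and Fabp4 at -3.78. The cell with most Retnla UMIs in ob/ob-Rosi 2 is not its deepest member and was not left out. That deepest member held 0 UMIs of F13a1, Wfdc17 and Ccl6, so leaving it out cannot show how many cells carried them. The library held 30, 31 and 48 UMIs of these genes. The largest count in any 1 member, in whichever library, was 26, 25 and 31. Over all settings the lowest values were 2.66 for Retnla, 2.00 for F13a1 and 1.15 for Ccl6, each with an adjusted p of up to 1.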

How the results depend on the processing

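Calls across genes rested on few cells and moved with most settings. For ob/ob-Veh against WT-Veh in eWAT (3 genes) 11 were called without the filter on low counts, 37 with a replicate block, 19 with other-lineage UMIs under 1 percent and 1 at 2 or more Trdc UMIs. For ob/ob-Rosi against ob/ob-Veh in eWAT (12) the counts were 6 by DESeq2, 21 without the filter, 66 with the block, 5 at 20 or more members, 0 after thinning, 3 at 5 or more members, 46 under 1 percent, 3 without the deepest members and 56 at 2 Trdc UMIs. For ob/ob-Rosi against WT-Veh in eWAT (4) they were 13, 28, 0, 0, 0, 19, 0 and 1 under the same settings from no filter on. In iWAT that contrast (0) gave 1 without the filter, 4 with the block and 35 at 2 Trdc UMIs. Between depots (3) the counts were 5 by DESeq2, 34 without the filter, 0 at 20 members, 32 under 1 percent, 12 without the deepest members and 10 at 2 Trdc UMIs. The Rosi contrast between depots (0) gave 1 by DESeq2 and 3 each without the filter, with the block and under 1 percent. The differences from CD4 and CD8 gate cells gave, for ob/ob-Veh against WT-Veh (29), 4 by DESeq2, 9 without the filter, 3 after thinning, 16 at 5 members, 5 without the deepest members and 0 at 2 Trdc UMIs, and for ob/ob-Rosi against ob/ob-Veh (21) 5 by DESeq2, 0 after thinning, 9 at 5 members, 11 without the deepest members and 11 at 2 Trdc UMIs. The cause of these moves was not tested.

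Without a library the counts ranged from 0 to 15 (ob/ob-Veh against WT-Veh, eWAT), 4 to 18 (ob/ob-Rosi against ob/ob-Veh), 0 to 15 (ob/ob-Rosi against WT-Veh), 0 to 0 (the same in iWAT), 0 to 31 (between depots), 0 to 3 (the Rosi contrast between depots), and 1 to 40 and 11 to 29 (the 2 differences from CD4 and CD8 gate cells). The eWAT ob/ob-Veh against WT-Veh count was 15 without ob/ob-Veh 1, 8 without ob/ob-Veh 2 and 0 without either library ob/ob-Rosi 2.

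Genes whose values are given here turned direction as follows. With the deepest members left out, Prdx1 stood at -0.13 for ob/ob-Rosi against WT-Veh and at -0.64, and Timp1 at -2.48, for the difference of the Rosi contrast from CD4 and CD8 gate cells. In that difference Wfdc17 stood at -0.85 after thinning. At 2 Trdc UMIs the difference of the ob/ob-Veh contrast was 3.23 for Csf2rb, 5.08 for Etv3, 5.86 for H2-DMb1 and 5.33 for Il1b. Other genes called lower in that difference also turned under at least 1 setting, to at most 1.12 for Irf8 (with the deepest members left out), 5.27 for Ccl17, 2.71 for Gm20186, 1.28 for Cd209a, 0.36 for Bcl2a1a and 0.30 for Ccl1.

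For numbers of members, log2 ratios of ob/ob-Veh to WT-Veh in iWAT were -0.80 with CD3 cells as the total, -1.54 for members with a gamma and no alpha or beta UMI, -4.27 for members with under 2 other-lineage UMIs and -4.11 without iWAT WT-Veh 1 and eWAT ob/ob-Rosi 1, none past the threshold, and -8.71 to -2.42 without a library. Its difference between depots was -4.73 with the replicate block (adjusted p = 0.0135) and -9.56 to -3.28 without a library. The ratio of ob/ob-Rosi to WT-Veh in eWAT turned to 0.41 with CD3 cells as the total, 0.44 at 2 Trdc UMIs and 0.62 without the 2 libraries, and ranged from -1.28 to 0.80. In iWAT it turned to 0.56 with CD3 cells as the total (range -1.76 to -0.07), and its difference between depots to 0.15 with CD3 cells, 0.25 for gamma without alpha or beta, and 0.45 under 2 other-lineage UMIs (range -1.94 to 0.13). iWAT against eWAT turned to 2.50 under 2 other-lineage UMIs (range -2.34 to -0.19). The other ranges were 0.28 to 1.69 and -2.13 to -0.24 (in eWAT, ob/ob-Veh to WT-Veh and ob/ob-Rosi to ob/ob-Veh), and 1.37 to 7.56 and 2.26 to 8.45 (in iWAT, ob/ob-Rosi to ob/ob-Veh, and its difference between depots).

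Replicate numbers were not taken to pair the libraries: the sources used here do not say that they do, and of the 6 correlations of deviations between groups (0.053 to 0.297) 4 were over 0.1 and 2 were not, so a pairing is not shown and the block stands only here. Gene fits on members with a gamma and no alpha or beta UMI, or with under 2 other-lineage UMIs, could not be fitted. The settings at 5 members, under 1 percent, without the deepest members, at 2 Trdc UMIs and without the 2 libraries were chosen after seeing the data. In simulated data with these cells and libraries mostly very large differences were called, and a count of 0 in a library allows up to 3 UMIs.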
